A study of Homo sapiens with 24 samples.

Results

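The genes of the proteasome and of its assembly were followed through 24 time points of a synchronized culture of K562 cells. Members were the protein-coding genes of GENCODE 29 whose symbol begins with PSMA, PSMB, PSMC, PSMD, PSME, PSMF or PSMG followed by a number. GENCODE 29 holds 49 such genes, and 45 of them were among the 12285 genes of the expression table. PSMB8, PSMB9, PSMB11 and PSMA8 were not in that table, which keeps only genes that reach 1 FPKM (a fragment count scaled to transcript length and to library size) in at least 12 time points. PSMC3IP matched by name only: it encodes a partner of the meiotic recombination machinery, so 44 of the 45 have a role in the proteasome. It is counted in all counts out of 45, and left out of the particle lists.

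The proteasome is the protease that degrades ubiquitin-tagged proteins in the cytosol and nucleus. Its core is a barrel of alpha rings, which gate the entrance, and beta rings, which carry the proteolytic sites. A regulatory cap sits on the core. The cap's base is a ring of ATPases that unfold substrates, and its lid removes the ubiquitin chain. Other caps replace this one, and dedicated chaperones guide the building of core and base. The subunits are needed in fixed proportions, and their genes are widely known to be regulated together through NFE2L1, a membrane-bound transcription factor that is itself degraded by the proteasome.

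K562 is an established human leukaemia line with erythroid features. The cells were synchronized by centrifugal elutriation, which selects cells by size, returned to RPMI medium with bovine calf serum and antibiotics, and sampled every 2 h from 0 h to 46 h. No cell was treated or modified. Each time point is 1 library, there are no replicates, and a group here is a time point, so no value at 1 time point has a replicate error. The study asked how to detect and correct STRIPEs, time points whose whole transcript profile departs from that of the neighbours, and names 16 h, 18 h and, as a milder case, 32 h as such. Here 16 h and 18 h are set apart, and 32 h is kept among the other 22 libraries unless stated.

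Read totals cannot be had from FPKM values, so depth is unknown. Summed over genes, FPKM came to 456791 to 520382 at 22 time points, 566247 at 16 h and 591309 at 18 h. All 14 erythroid leukaemia markers listed were in the table, with a summed level of 4343 to 9382 FPKM. Of the markers of other cells, the table held 1 of 4 monocyte genes (LYZ, 10.7 to 28.2 FPKM) and 1 of 5 fibroblast genes (COL1A2, 1.70 to 3.94 FPKM). The other markers of those cells, CD14, CSF1R, FCGR1A, COL1A1, COL3A1, DCN and LUM, were not among its genes.

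Proteasome genes were among the abundant transcripts of these cells. The 44 genes together took 1.18% (18 h) to 1.42% (14 h) of the summed FPKM. FPKM is a level per length of transcript, so levels can be compared between genes. In the alpha ring, 7 genes had mean levels from 146 FPKM for PSMA6 to 327 FPKM for PSMA4, with a median of 214 FPKM. In the beta ring, the 7 standard subunits ranged from 104 FPKM for PSMB6, which carries the caspase-like site, to 441 FPKM for PSMB1, with a median of 234 FPKM. The lid was the most even list of its size, with 8 genes between 103 FPKM (PSMD6) and 161 FPKM (PSMD8). The base non-ATPase subunits were PSMD1 at 90.9 FPKM, the ubiquitin receptor PSMD4 at 111 FPKM and PSMD2, which anchors the base, at 268 FPKM.

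Of the immunoproteasome subunit, the other caps and the assembly factors, most lay below every lid gene, with PSME3 and PSMG1 among the exceptions. PSMB10, the only subunit of the immunoproteasome in the table, had a mean of 21.4 FPKM. PSMB7, the standard subunit whose place it takes, was at 226 FPKM. Among the caps, PSME1 and PSME2, which form the interferon-inducible activator, were at 35.4 and 59.0 FPKM. PSME4, a large single-chain activator, was at 53.5 FPKM, and PSME3, which forms the nuclear activator, at 165 FPKM. The base chaperones PSMD10, PSMD9 and PSMD5 were at 39.2, 45.9 and 84.7 FPKM. The core chaperones, which pair as PSMG1 with PSMG2 and PSMG3 with PSMG4, ranged from 35.6 FPKM (PSMG4) to 272 FPKM (PSMG1). PSMF1, an inhibitor of the core in the test tube, was at 66.0 FPKM.

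The base ATPases held the exception. PSMC2, PSMC3, PSMC4, PSMC5 and PSMC6 had means of 82.0 to 179 FPKM, whereas PSMC1, which belongs to the same ring, had a mean of 1.61 FPKM. PSMC1 lay at 1.07 FPKM at 6 h, had a median of 1.59 FPKM and reached 2.66 FPKM at 30 h, so no library placed it near the other ATPases. GENCODE 29 lists 13 processed pseudogene copies of PSMC1, none of them in the table. How reads shared with these copies were assigned is not given in the sources used here, and the part of the copies in this value was not tested. No other member has more than 4 copies. PSMA1, PSMA2, PSMB5, PSMB10, PSMD9 and PSMD14 each overlap 1 other gene of the table on the same strand, so their values are uncertain in the same sense. The strand setting of the counting is also not given, and 17 members overlap a gene of the table on the opposite strand.

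**Figure D1:**
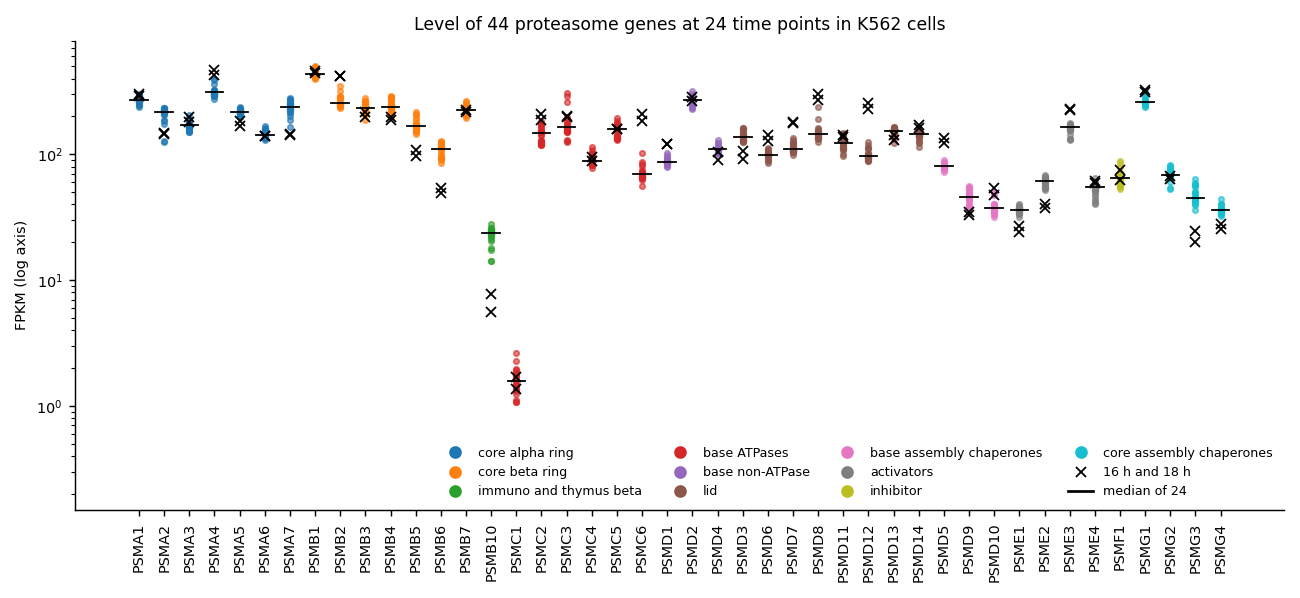
Level of the 44 proteasome genes in FPKM on a log axis. Each dot is 1 of 22 time points, crosses are 16 h and 18 h, and the black bar is the median of all 24. The dots of most genes lie close together, PSMC1 lies near 1.59 FPKM, and the crosses of PSMC6, PSMD12, PSMB6 and PSMB10 stand clear of the dots.

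Leaving out 16 h and 18 h, the levels moved little with time. The coefficient of variation over the other 22 time points had a median of 9.83% in the 43 proteasome genes whose mean reached 10 FPKM, and it was 11.7% in all 7169 genes with such a mean. It lay below that all-gene median in 28 of the 43. Beyond the limit of 10 FPKM, the members and all genes were not matched for level. PSMD5 had the lowest value, 4.65%, and PSMC3 the highest, 27.5%. These values hold both change with time and library error, which 1 library per time point cannot separate.

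The core was highest at 14 h. The summed level of its 14 standard genes was 3158 FPKM at 0 h, 3637 FPKM at 14 h, 3445 FPKM at 20 h, 3508 FPKM at 22 h, 3274 FPKM at 26 h and 3514 FPKM at 30 h. It was 2852 FPKM at 46 h, the lowest of all 24 libraries, and 2919 FPKM at 32 h. The beta ring went from 1596 FPKM at 0 h to 1925 FPKM at 14 h and 1474 FPKM at 46 h. The sum of the core assembly chaperones had its highest value at 12 h, 489.7 FPKM, and its lowest at 32 h, 375 FPKM. The activators were at 279 FPKM at 0 h and 263 FPKM at 4 h, their lowest value, and at 352 and 350 FPKM at 16 h and 18 h. Their highest value in the other 22 libraries was 332 FPKM at 36 h. At 16 h and 18 h the core was at 3153 and 3214 FPKM, below 14 h and 20 h but within its range elsewhere. The lid stood at 1382 and 1381 FPKM against 926 to 1093 FPKM in the other 22 libraries, with most of the difference from PSMD8 and PSMD12. The base non-ATPase subunits were at 511 and 475 FPKM, within their range of 417 to 538 FPKM. The ATPases were at 853 and 845 FPKM in these 2 libraries, a level also seen at 22 h (849 FPKM). No test was made of these sums, and they are not scaled to the summed FPKM of all genes. That total was 566247 at 16 h and 591309 at 18 h, against at most 520382 in the other 22 libraries. The 44 genes together took 1.23% and 1.18% of it at 16 h and 18 h, against 1.42% at 14 h and 1.40% at 20 h.

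**Figure D2:**
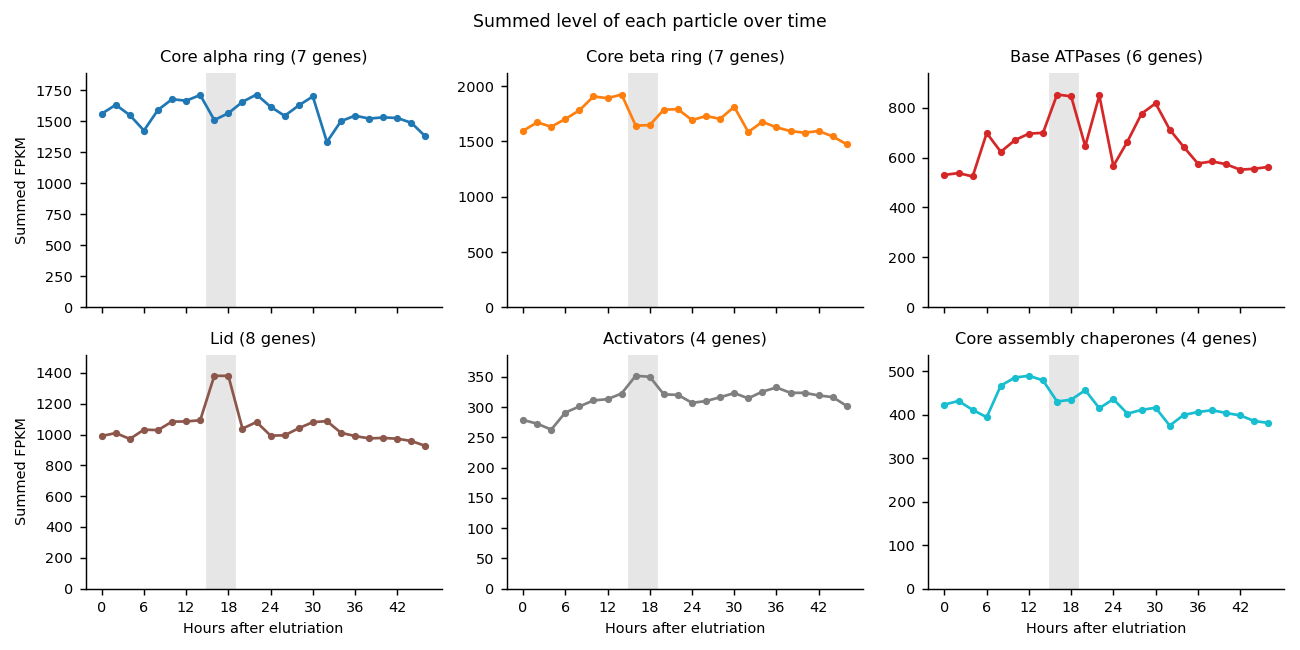
Summed FPKM of 6 lists against hours after elutriation, with 1 library per point and 16 h and 18 h shaded. Sums are not scaled to the total of each library. The core rings dip in the shaded libraries, where the lid stands at 1382 and 1381 FPKM, above its other 22 values.

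The courses of proteasome genes resembled each other more than those of other genes did, with no test made. Pearson's r between the courses of 2 genes was taken on log2(FPKM + 1) after each library had been centred on its median. Over all 24 time points its median was 0.25 across the 903 pairs of 43 proteasome genes and 0.02 across all pairs of the 7169 genes. Among the 91 pairs of core genes the median was 0.61, but the pairs ranged from -0.74 to 0.93. Without 16 h and 18 h the medians were 0.36 for all proteasome pairs, 0.65 for the core and 0.02 for all genes. Leaving out also 6, 22, 28, 30 and 32 h, a choice made after seeing the data, gave 0.57, 0.82 and 0.04. Over these 17 time points all 91 core pairs were above 0, the lowest at 0.09. The alpha ring then had a median r of 0.82, the beta ring 0.86, the ATPases without PSMC1 0.81, the lid 0.40, the activators 0.27 and the base chaperones 0.02. All pairs share the same libraries, so the values are descriptions with no p-value.

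At 16 h and 18 h subunits of a single particle departed in opposite directions. The departure of a gene was its mean distance, on log2(FPKM + 1), from a line drawn through its values at 14 h and 20 h. There is no test, and the reference was the same gene's departure at 16 other pairs of consecutive time points. Departures of the 45 members ran from -1.80 for PSMB10 to 1.46 for PSMC6. They were above 0 in 20 members and below 0 in 25 as deposited, in 15 and 30 with median centring, in 14 and 31 with upper-quartile scaling and in 11 and 34 with a GC trend removed. The median of the 44 was -0.06, and that of all 12253 genes tested was 0.14. Median centring and upper-quartile scaling moved the all-gene median to 0.03 and -0.07.

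At least 2-fold above the line were 2 of 45 members (4.44%, against 8.95% of all genes), and at least 2-fold below it were 3 (6.67%, against 7.11%). At 1.5-fold the counts were 5 (11.1%, against 23.9%) and 8 (17.8%, against 16.8%). Above every one of their 16 reference pairs were 16 members (35.6%, against 43.6%), and below every one were 16 (35.6%, against 28%). The genes at least 2-fold above made up 55.7% of all genes called in either direction as deposited, 41.6% with median centring and 30.1% with upper-quartile scaling. Shares of members were thus under the background above the line, and near it or over it below the line.

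The split ran through most lists, beside 43.6% of all genes above all their reference pairs and 28% below all of theirs. In each core ring 4 of 7 genes were below all their reference pairs and 1 was above: PSMA2, PSMA5, PSMA6 and PSMA7 against PSMA4, and PSMB1, PSMB4, PSMB5 and PSMB6 against PSMB2. In the lid 5 of 8 were above (PSMD6, PSMD7, PSMD8, PSMD12 and PSMD14, the deubiquitinase) and PSMD3 was below. Of the 6 ATPases PSMC2 and PSMC6 were above and none was below. The activators divided by partner, with PSME1 and PSME2 below, at -0.56 and -0.72, and PSME3 and PSME4 above, at 0.42 and 0.26. Among the chaperones PSMD5, PSMD10 and PSMG1 were above, and PSMD9, PSMG3 and PSMG4 below.

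Directions above the line depended on the scaling, and both scalings move every departure downward. Of the 16 members above all their reference pairs, 1 turned below 0 with median centring (PSMG1), 2 with upper-quartile scaling (PSMG1 and PSMD14) and 8 with a GC trend removed (PSMA4, PSMC2, PSMD1, PSMD6, PSMD10, PSMD14, PSME4 and PSMG1). The median of the lid was 0.27 as deposited, 0.16 and 0.03 under the 2 scalings, and -0.15 with a GC trend removed. The medians of the alpha and the beta ring were -0.19 and -0.30 as deposited.

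PSMC6 (ENSG00000100519), a base ATPase, had 185 FPKM at 16 h and 209 FPKM at 18 h. In the other 22 libraries its lowest level was 55.7 FPKM (4 h), its median 69.3 FPKM and its highest 103 FPKM (32 h), so the 2 sets do not overlap. Its departure was 1.46, and its reference pairs lay between -0.27 and 0.33. PSMD12 (ENSG00000197170), a scaffold of the lid, had 231 and 254 FPKM, against a lowest, median and highest level of 87.8, 96.6 and 126 FPKM. Its departure was 1.32. In both genes 32 h was the highest of the other 22 libraries.

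PSMD8, a lid subunit, had 299.6 FPKM at 16 h and 271 FPKM at 18 h, and a lowest, median and highest level of 126, 145 and 237 FPKM elsewhere. Its departure was 0.90. PSMD5, a base chaperone, had 123 and 136 FPKM against 72.5, 80.2 and 89.7 FPKM elsewhere, with a departure of 0.70. For PSMD8 and PSMD5 too, the highest of the other libraries was 32 h. PSMC3IP, the name match, had a departure of 0.83.

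PSMB10 (ENSG00000205220), the immunoproteasome subunit, lay farthest below the line. It had 7.71 FPKM at 16 h and 5.58 FPKM at 18 h, and elsewhere a lowest level of 14.1 FPKM (32 h), a median of 24.3 FPKM and a highest level of 28.0 FPKM (30 h). Its departure was -1.80, and its reference pairs lay between -0.68 and 0.55. PSMG3, a core chaperone, had 24.4 and 20.2 FPKM, against 36.2, 45.6 and 63.9 FPKM elsewhere, a departure of -1.24. Both genes were lower at 16 h and 18 h than in every other library.

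PSMB6 and PSMB5, which carry the caspase-like and the chymotrypsin-like site, both lay far below the line. PSMB6 had 53.6 and 49.1 FPKM, against a lowest, median and highest level of 84.8, 113 and 128 FPKM, and a departure of -1.17. PSMB5 had 109 and 96.2 FPKM, against 146, 169 and 216 FPKM, and a departure of -0.97. PSMB7, the trypsin-like subunit, had a departure of -0.13, within its reference pairs. PSMA7, an alpha ring subunit, had 144 and 141 FPKM, against 165, 241 and 279.8 FPKM, and a departure of -0.89. None of these 10 departures changed sign under any alternative tried, although with a GC trend removed PSMC6 moved to 0.90, PSMD12 to 0.78 and PSMG3 to -0.86, inside the 2-fold limit, and PSMD5 to 0.30, inside the 1.5-fold limit. With upper-quartile scaling PSMD5 was at 0.46.

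**Figure D3:**
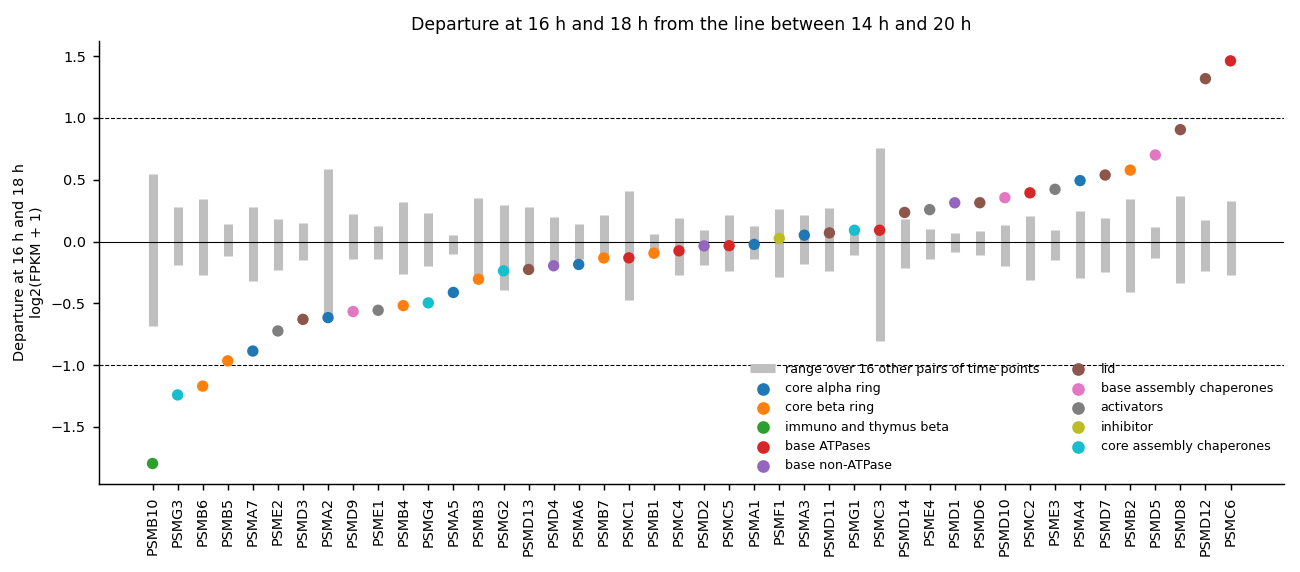
Departure of each of 44 proteasome genes at 16 h and 18 h from the line between 14 h and 20 h, on log2(FPKM + 1), in order of size. Gray bars are the lowest to highest departure of that gene at 16 other pairs, and dashed lines mark 2-fold. PSMC6 and PSMD12 lie above the upper line, and PSMB6, PSMG3 and PSMB10 below the lower.

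GC content moved with the departure. Across the 45 members the departure had a Pearson r of -0.55 and a Spearman rho of -0.48 with the GC content of the transcripts, and across 12148 genes -0.53 and -0.57. PSMC6 and PSMD12 have 40.2% and 41.2% GC, and PSMB10 and PSMG3 have 62.0% and 59.3%. PSMD8 does not follow this order, with 56.8% GC and a departure of 0.90, and PSMA2 has 39.6% GC and a departure of -0.62. With transcript length r was -0.03 in the members. Genes in 1 library share its preparation and are not independent, and the part of GC content in these departures was not tested.

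Fewer genes departed at 6 h and 32 h, but the level of PSMA2 was lower there than at 16 h and 18 h. Against the mean of both neighbours, 2 of 45 members were at least 1.5-fold below at 6 h (4.44%, against 1.9% of all genes) and 0 were above (against 2.41%). At 32 h 2 were below (4.44%, against 3.36%) and 1 was above (2.22%, against 3.4%). PSMA2, an alpha subunit, and PSMB10 were the genes below at both hours. The departure of PSMA2 was -0.74 at 6 h and -0.71 at 32 h. In the 16 h and 18 h pair, measured from a line and so not on the same measure, it was -0.62, and -1.19 with a GC trend removed. PSMA2 had 127 FPKM at 6 h and 126 FPKM at 32 h, 147 and 146 FPKM at 16 h and 18 h, and a median of 217 FPKM over all 24. PSMB10 had 14.2 FPKM at 6 h and 14.1 FPKM at 32 h. The gene above at 32 h was PSMD8, with 237 FPKM. PSMF1, within the limits at each hour, was at 0.47 and 0.34 at 6 h and 32 h and at 0.03 at 16 h and 18 h.

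Across the 45 members the departure at 16 h and 18 h had r = 0.69 with that at 32 h and r = 0.58 with that at 6 h, and these 3 departures share no library. Across 12148 genes the values were 0.60 and 0.48. The sign was the same as at 16 h and 18 h in 32 members at 32 h (71.1%, against 70.4% of all genes) and in 28 at 6 h (62.2%, against 63%). Both shares of members were thus close to those of all genes.

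**Figure D4:**
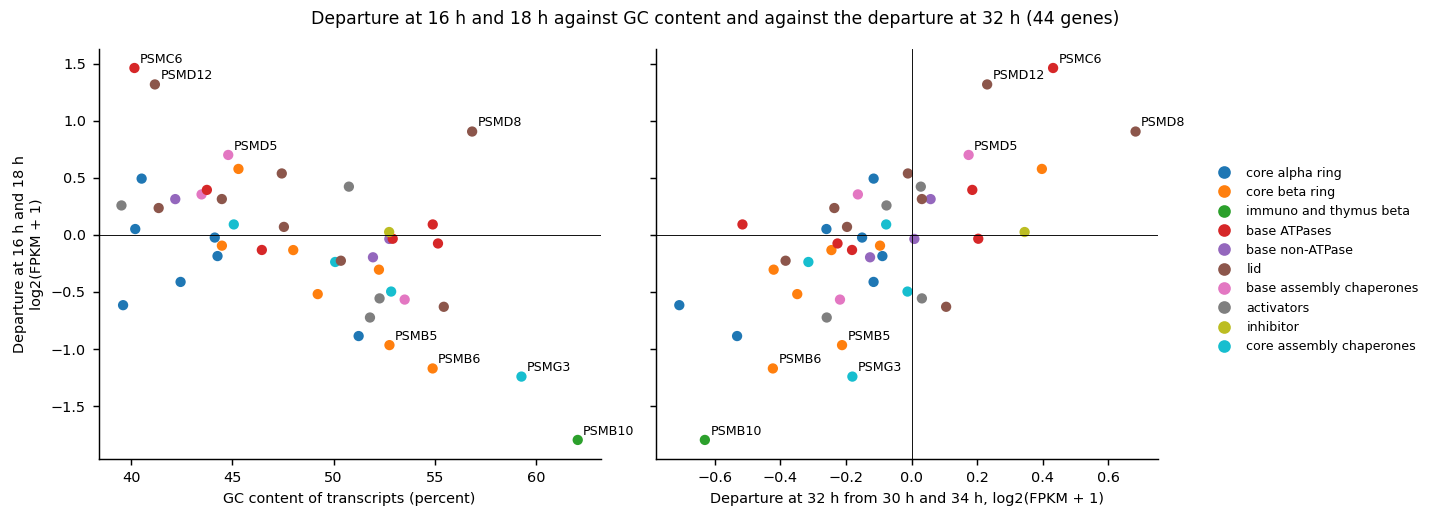
Departure of 44 proteasome genes at 16 h and 18 h against the GC content of their transcripts in percent (left) and against their departure at 32 h from 30 h and 34 h (right), both departures on log2(FPKM + 1). Colours are the particle lists. Genes of low GC content tend to lie high and those of high GC content low, with PSMD8 the high point at 56.8% GC, and genes high at 16 h and 18 h tend to be high at 32 h.

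A different set of libraries stood out for PSMC3, an ATPase, and PSMA4, an alpha subunit, which are named after their values were seen. PSMC3 had 307 FPKM at 22 h, 263 FPKM at 28 h and 289 FPKM at 30 h. Its level was 179 FPKM at 20 h, 153 FPKM at 24 h, 172 FPKM at 26 h and 153 FPKM at 32 h. At 16 h and 18 h it was at 203 and 198 FPKM. Its 22 h value lay 0.89 above the mean of its neighbours on log2(FPKM + 1), and the highest such value at 17 other single time points was 0.53. PSMA4 had 401, 365 and 391 FPKM at 22, 28 and 30 h, and 311, 304, 320 and 317 FPKM at 20, 24, 26 and 32 h. Unlike PSMC3, PSMA4 was also high at 16 h and 18 h, with 424 and 469 FPKM. Other members also lay higher at 22 h than at 17 other single time points. They were PSMA3, PSMA6, PSMC2, PSMC4, PSMD2, PSMD4, PSMD7, PSMD10, PSMD11, PSMD12, PSMD14 and PSME4. The share of all genes that did so is not given here, so the rise cannot be called particular to these genes. PSMC4 was at 0.37, against at most 0.19, and PSMD7 at 0.20, against 0.16, whereas PSMD6 did not lie higher (-0.02, against 0.06). PSMC4 had 115, 103 and 108 FPKM at 22, 28 and 30 h, and 94.7, 83.3, 97.3 and 87.3 FPKM at 20, 24, 26 and 32 h.

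Sequence before the annotated start was then set beside these departures. RefSeq promoter windows (GRCh38.p14) were found for 38 of the 44 genes, 46 windows in all, and not for PSMA7, PSMB1, PSMB6, PSMB7, PSMD4 and PSMG3. The 250 bases before the start were searched on both strands for 6 motifs. The motif TGANNNNGC was searched as a loose form of the antioxidant response element, which NFE2L1 and NFE2L2 can bind. This antioxidant motif was in 24 of 46 windows (52.2%) and in 35.2% of all 35116 windows. Whether any match is bound was not tested. The ETS motif CCGGAAG was in 10 (21.7%, against 8.52%), and the NF-Y box CCAAT in 17 (37.0%, against 32.0%). The nuclear respiratory factor 1 motif GCATGCGC was in 2 (4.35%, against 2.63%). The CREB and ATF motif TGACGTCA and the heat shock motif GAANNTTC were in 0, against 1.65% and 5.78%. Matches of different motifs overlapped at 2 places.

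By direction at 16 h and 18 h, the ETS motif was in the windows of 6 of 15 genes above all their reference pairs, 2 of 11 below and 2 of 12 within. The antioxidant motif was in 7 of 15, 8 of 11 and 6 of 12. These are counts of letters in short windows and were not tested.

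The 150 bases before the start are shown for those genes with a window that lay farthest from the line at 16 h and 18 h, 3 above it and 3 below it, 5′ to 3′ on the strand of the gene, with motif matches in capitals. They lie in GRCh38.p14 just upstream of the first exon, with PSMC6 at chr14:52707050-52707199 (plus strand), PSMD12 at chr17:67366578-67366727 (minus strand), PSMD8 at chr19:38374421-38374570 (plus strand), PSMB10 at chr16:67936851-67937000 (minus strand), PSMB5 at chr14:23035221-23035370 (minus strand) and PSME2 at chr14:24146611-24146760 (minus strand). The capitals in PSMC6 and PSMD12 are ETS matches. PSMD8 has an NF-Y box, a match to the loose antioxidant motif and an ETS match in that order. PSMB5 has 2 matches to the loose antioxidant motif, and PSMB10 and PSME2 have no match in these bases.
PSMC6: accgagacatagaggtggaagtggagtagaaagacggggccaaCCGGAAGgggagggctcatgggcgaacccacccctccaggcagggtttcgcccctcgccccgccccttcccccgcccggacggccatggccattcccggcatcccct
PSMD12: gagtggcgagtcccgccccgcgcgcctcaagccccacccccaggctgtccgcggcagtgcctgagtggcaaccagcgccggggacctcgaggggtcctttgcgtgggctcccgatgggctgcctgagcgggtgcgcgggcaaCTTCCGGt
PSMD8: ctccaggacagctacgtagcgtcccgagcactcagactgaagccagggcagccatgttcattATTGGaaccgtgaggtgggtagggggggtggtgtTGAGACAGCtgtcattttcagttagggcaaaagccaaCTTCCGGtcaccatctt
PSMB10: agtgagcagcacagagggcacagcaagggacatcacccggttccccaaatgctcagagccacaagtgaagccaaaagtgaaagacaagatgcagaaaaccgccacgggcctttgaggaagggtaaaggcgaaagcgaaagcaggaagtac
PSMB5: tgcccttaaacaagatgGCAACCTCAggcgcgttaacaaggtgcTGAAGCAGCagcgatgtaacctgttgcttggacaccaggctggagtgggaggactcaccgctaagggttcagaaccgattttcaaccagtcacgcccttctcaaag
PSME2: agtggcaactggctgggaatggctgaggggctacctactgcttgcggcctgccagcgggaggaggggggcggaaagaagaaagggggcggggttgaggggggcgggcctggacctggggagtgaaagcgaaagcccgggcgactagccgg

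To ask which genes followed a 24 h period, the JTK statistic was used, the largest Kendall S of the values with a cosine over 12 phases. Its p-value came from a permutation test of 100000 orderings, adjusted by Benjamini-Hochberg over 12285 genes. It called 3 of 45 members (6.67%), against 13% of all genes. These were PSME3, PSME4 and the base chaperone PSMD9, and no subunit of the core, the lid or the ATPase ring was among them. At an unadjusted p of 0.05 or less 8 members passed (17.8%, against 30.2% of all genes).

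PSME3 (ENSG00000131467) had the smallest adjusted p-value, 0.00298 by the JTK permutation test. Its level was lowest at 2 h, 131 FPKM, had a median of 164 FPKM and was highest at 18 h, 229 FPKM. A 24 h cosine fitted with limma gave a peak-to-trough difference of 0.34 ± 0.09 (SE) on the log2 scale with the peak at 14.3 h. Leaving out 16 h and 18 h, the highest level was 176 FPKM at 10 h, and the adjusted p of the permutation test was 0.00419. PSME3 was called under each alternative except a period of 28 h.

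PSMD9 had its lowest level at 18 h, 33.0 FPKM, a median of 46.1 FPKM and its highest level at 30 h, 55.9 FPKM. The adjusted p was 0.0378 by the JTK permutation test, and the cosine peaked at 5.91 h with a peak-to-trough difference of 0.37 ± 0.10 (SE). PSME4 was at 40.6 FPKM at 4 h, had a median of 54.7 FPKM and reached 64.5 FPKM at 46 h. Its adjusted p was 0.0497 by the same permutation test, with a peak-to-trough difference of 0.33 ± 0.07 (SE). Without 16 h and 18 h these became 0.117 for PSMD9 and 0.105 for PSME4 in that permutation test, and neither passed. Both also missed the threshold with upper-quartile scaling, at 0.0767 and 0.102, and in the cleaned table, at 0.0883 and 0.125, by the permutation test. The limma test of the cosine called both, with adjusted p-values of 0.0305 and 0.0138. In the permutation test without 16 h and 18 h, PSMD8 and PSMD10 were called beside PSME3. With a GC trend removed PSME3 alone was called, and PSMD9 and PSME4 had 0.0876 and 0.420 in the permutation test.

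The second day was compared with the first at the 12 matched hours, with limma on log2(FPKM + 1) and the hour as a block. Of 45 members 0 rose, against 9.57% of all 12253 genes, and 2 fell (4.44%, against 5.16%). Over all genes 1173 rose and 632 fell as deposited, and 1076 rose and 898 fell with median centring. At an unadjusted p of 0.05 or less, limma gave 3 members higher and 6 lower, against 16.8% and 13.7% of all genes. An exact sign-flip permutation test over the 12 hours called 0 members higher and 5 lower after adjustment, against 10.0% and 6.80% of all genes. The difference was below 0 in 32 members (71.1%, against 52.0% of all genes) as deposited and in 29 (64.4%, against 43.2%) with upper-quartile scaling. Its median was -0.07 in the members and -0.01 in all genes. Among genes whose mean reached 10 FPKM, the difference was below 0 in 31 of 44 members (70.5%, against 58.6% of such genes). The medians there were -0.08 and -0.04.

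PSMD10 (ENSG00000101843), a base chaperone also known as the oncoprotein gankyrin, had a mean of 42.2 FPKM on the first day and 36.2 FPKM on the second. It fell by 0.21 ± 0.06 (SE) on the log2 scale, was lower at 11 of 12 hours, and had an adjusted p of 0.0424 with limma. Its highest levels on the first day were 54.1 FPKM at 18 h and 49.3 FPKM at 0 h, and on the second day no library was above 39.4 FPKM. The lid subunit PSMD6 had means of 109 and 95.7 FPKM. It fell by 0.18 ± 0.06 (SE), was lower at 11 of 12 hours, and had an adjusted p of 0.0429 with limma. Without 16 h, 18 h and their partners neither passed, with adjusted p-values of 0.0784 and 0.0624 from limma, and PSMB1, PSMD3 and PSMG3 were called lower in their place. Both calls are fragile also to single hours: with 1 of the 12 matched hours left out in turn, PSMD10 passed in 2 and PSMD6 in 1, with adjusted p-values of 0.0219 to 0.0833 and 0.0369 to 0.0858 from limma.

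PSME4 differed in the other direction. Its means were 50.2 and 56.8 FPKM, a difference of 0.19 ± 0.06 (SE) with higher values at 8 of 12 hours and an adjusted p of 0.0566 with limma, which misses the threshold. With upper-quartile scaling its adjusted p from limma was 0.0110, and with a GC trend removed 0.00719. PSME1 and PSME2 were higher at 10 and 8 of the 12 hours, at 0.15 ± 0.07 and 0.19 ± 0.08 (SE), and did not pass, with adjusted p-values of 0.158 and 0.131 from limma.

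**Figure D5:**
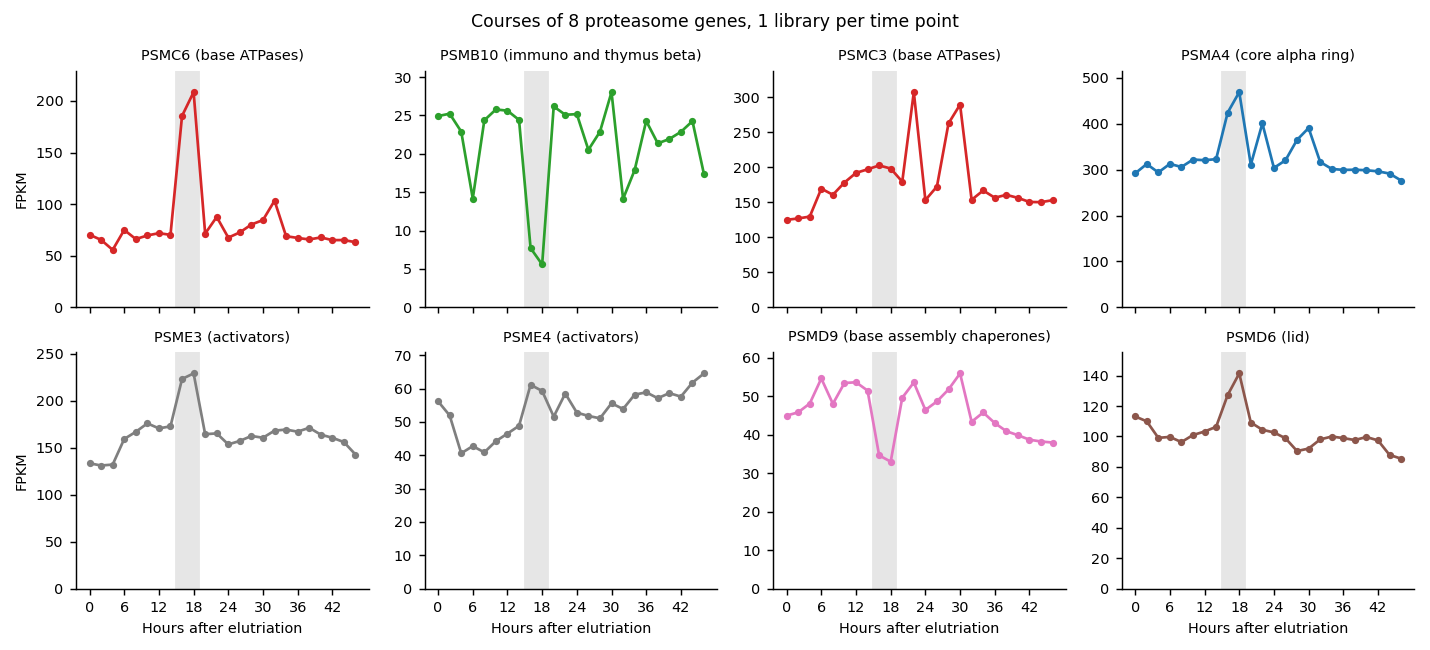
FPKM of 8 proteasome genes against hours after elutriation, with 1 library per point, axes from 0, and 16 h and 18 h shaded. PSMC6 stands at 185 and 209 FPKM and PSMB10 at 7.71 and 5.58 FPKM in the shaded libraries, PSMC3 and PSMA4 stand out at 22, 28 and 30 h, and PSME4 ends at 64.5 FPKM.

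Genes that work with the proteasome but lie outside the rule were given as 3 further lists. Of 15 associated proteins 5 were at least 2-fold above the line at 16 h and 18 h (33.3%, against 8.95% of all genes). At least 2-fold below it were 0, against 7.11% of all genes. The 5 above were the small cap subunit SEM1, the deubiquitinase UCHL5, the base chaperone PAAF1, the adaptor ECPAS and the thioredoxin TXNL1. These were named after their values were seen. With a GC trend removed ECPAS stayed 2-fold above, at 1.11. SEM1, UCHL5, PAAF1 and TXNL1 moved to 0.98, 0.83, 0.83 and 0.61, inside the 2-fold limit. Over all genes the number 2-fold above went from 1097 to 621 with that trend removed. UCHL5 had 403 FPKM at 18 h and a median of 144 FPKM, with 120 FPKM as its lowest level (8 h). Of the 9 regulators 1 was 2-fold above (11.1%, against 8.95% of all genes), NFE2L1. NFE2L1 had 106 FPKM at 18 h, a median of 32.0 FPKM and a lowest level of 26.6 FPKM at 20 h. It was also at 57.4 FPKM at 6 h and 64.5 FPKM at 32 h. Of the 6 genes for ubiquitin and its activating enzymes 1 was 2-fold above (16.7%, against 8.95% of all genes), the activating enzyme UBA6. With a GC trend removed UBA6 moved to 0.91, inside the 2-fold limit, and NFE2L1 was at 1.92. Below all their reference pairs were 5 of the 6 (83.3%, against 28% of all genes).

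The JTK test, which called 13% of all genes, called 1 of the 15 associated genes. This was the ubiquitin receptor ADRM1, with an adjusted p of 0.00298 in the permutation test. ADRM1 was at 65.5 FPKM at 0 h, 122 FPKM at 6 h, 56.1 FPKM at 18 h and 57.5 FPKM at 46 h. Of the regulators KEAP1, the adaptor that marks NFE2L2 for degradation, and MAFG, a partner of NFE2L1 and NFE2L2, were called, with adjusted p-values of 0.00372 and 0.00715 in the permutation test. KEAP1 ranged from 30.9 FPKM at 18 h to 78.4 FPKM at 6 h. UBA1, the main ubiquitin-activating enzyme, was the 1 of 6 called in the ubiquitin list, with an adjusted p of 0.0273 in the permutation test and a cosine of 0.13 ± 0.05 (SE) peak to trough. By the limma test of the cosine the adjusted p-values were 0.000782 for ADRM1, 0.00261 for KEAP1, 0.00791 for MAFG and 0.167 for UBA1. Each of these genes had its lowest level at 18 h, and these tests include 16 h and 18 h. The study found genes with a peak or trough at those hours over-represented among its top periodic genes. Results without those hours are not given here for these genes. On the second day limma called 0 genes of these 3 lists in either direction, against 9.57% higher and 5.16% lower among all genes.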

How the data were processed

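RNA sequencing of 24 K562 samples, taken 2 h apart up to 46 h, was analysed. Samples were assigned to time points from their labels. The authors aligned reads with STAR and made FPKM values with Cufflinks2, and the submitters' processing notes also name Cuffnorm and GRCh37. Versions and annotation were not given in the sources used here. The authors also deposited a cleaned table, whose score is a Z-score followed by quantile normalization, and it served as an alternative only. Depth is unknown, and gene names, transcript length and GC content came from GENCODE 29.

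The members and lists were chosen with earlier results of these data known. All members could be named. Time points are given for the highest and lowest member of each list, the 5 largest departures in each direction, the members called by a test, and the non-members that passed a test.

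Day effects and the 24 h cosine were fitted with limma 3.58.1 in R 4.3.3 on log2(FPKM + 1) for the 12253 genes whose mean reached 1 FPKM, and called at an adjusted p of 0.05. JTK, departures and correlations were computed in Python 3.11.15. The GC trend was a lowess curve with a span of 0.3 from statsmodels 0.14.6. Alternatives were other periods, pseudocounts, filters, scalings and thresholds, time points left out, and an exact sign-flip test. The limma tests and the JTK test were also run on simulated data. A further list of markers is not reported here. P-values measure the order or consistency of values over the libraries of 1 culture, and not over cultures. The JTK permutation treats time points as exchangeable, which samples taken in series from 1 culture need not be. The spread between these libraries may be technical.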

Additional observations from a re-analysis of the deposited data

How the results depend on the processing

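Members called by JTK numbered 3 as reported, 1 with a GC trend removed and 0 at a period of 28 h, and 2 to 4 under the other alternatives. Members called higher on the second day by limma numbered 0 as reported and 1 with median centring, upper-quartile scaling, a GC trend removed, or without 16 h, 18 h and their partners, in each case PSME4. Leaving out 1 matched hour gave 0 to 1, with PSME4 called without 0 h, 16 h or 18 h. Members called lower numbered 2 as reported, 4 with median centring, 1 with upper-quartile scaling or a GC trend removed, and 5 with the exact sign-flip permutation test. Leaving out 1 matched hour gave 0 to 2: 2 without 0, 4 or 6 h, 1 without 8 h and 0 without any of the others. Leaving out 6, 16, 18 and 32 h, chosen after seeing the data, gave 2 by JTK and 0 higher and 3 lower on the second day. Over all genes JTK called 1602 as reported, 802 with a GC trend removed, 381 at a period of 20 h, 447 at 28 h and 927 without those 4 hours. Over all genes limma called 632 lower on the second day as reported and 1029 with a GC trend removed, and 1173 higher as reported and 424 among the 7169 genes whose mean reached 10 FPKM, with 351 lower there. At 16 h and 18 h the members at least 2-fold above numbered 2 as reported, 5 at 1.5-fold and 1 with a GC trend removed. Those below numbered 3, 8 at 1.5-fold and 5 with upper-quartile scaling. Over all genes 1097 were at least 2-fold above as reported and 621 with a GC trend removed. At least 2-fold below were 871 genes as reported and 1318 with upper-quartile scaling. At 1.5-fold, 23.9% of all genes were above and 16.8% below. The median departure of the 44 was -0.06 as deposited, -0.17 with median centring, -0.28 with upper-quartile scaling and -0.32 with a GC trend removed. The cause of these changes was not tested. With 1 library per time point and unknown depth, the error of a single value cannot be given.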
